A study of Oryza sativa with 30 samples.

Results

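In rice shoot apices of the cultivar Nipponbare (NB), 22 genes had levels that climbed over 12 days of the short-day treatment that induces flowering, and their course in the cultivar Taichung 65 (T65) is described here. They were chosen from 55986 loci on NB counts alone. A locus was taken when its mean CPM (counts per 1000000 counts in genes of a library) increased in the order day 0, day 4, day 8 and day 12 of short days in NB, when the day 8 mean was at least 2 times and the day 12 mean at least 4 times the day 0 mean (0.1 CPM added to each), when the day 12 mean reached 2 CPM, and when every NB day 12 library lay above every NB day 0 library. The rule left out 4 genes that met it, the MADS-box genes OsMADS14 (LOC_Os03g54160), OsMADS15 (LOC_Os07g01820) and OsMADS18 (LOC_Os07g41370) and the locus LOC_Os01g11940. The NB values are therefore a description of how the genes were chosen, and T65, which the rule did not use, is where their behaviour was tested.

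Both cultivars are japonica rice. Plants were 6 weeks old when moved from long days (16 h light, 8 h dark) to short days (10 h light, 14 h dark), and apices were cut out with scalpels under a microscope. The groups were T65 and NB at day 0, which is continuous long days, and after 4, 8 and 12 short days, with 3 libraries each except T65 day 12 with 2. The 30 samples in the labels gave 23 count libraries, because samples with the same group and replicate number had been merged into 5 of them. Those were NB day 4 replicates 1 and 3, NB day 8 replicate 1, T65 day 4 replicate 2 and T65 day 12 replicate 2. The titles of merged samples differ by a number and do not say what it stands for. The sources used here give neither the number of plants per library nor the hour of collection. No source calls the libraries of a group separate plants, and p-values therefore reflect library-to-library spread alone, which may be technical. In such dissected tissue, a change in the number of cells of a type and a change of RNA per cell cannot be told apart.

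In rice, short days induce florigen proteins in the leaf, which travel to the apex, join 14-3-3 proteins and a bZIP factor there and switch on MADS-box genes of the APETALA1 and FRUITFULL group. The apical meristem then stops making leaves and forms the panicle. Of the 22 genes, 4 have a symbol that could be checked by name and chromosome. Emp1 (LOC_Os05g28210) encodes an Em-type late embryogenesis abundant protein, a small hydrophilic protein best known from maturing seeds. Lsi1 (LOC_Os02g51110) encodes a channel of the aquaporin family that takes silicic acid into the root. CAB1R (LOC_Os09g17740) and CAB2R (LOC_Os01g41710) encode chlorophyll a/b-binding proteins of the photosynthetic antenna. The other 18 are given by their MSU locus identifier, with no name or role, because the files and the reference table used here do not annotate them.

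Libraries held 8611425 to 24948806 counts in genes, so 3 counts, the floor used here for a count of 0, corresponded to 0.12 to 0.348 CPM. That floor and the intervals below cover counting error only. Reads with several alignments, as a percentage of counts in genes, separated 7 libraries (5.76 to 6.71%) from 16 others (9.59 to 10.9%). The lower set held T65 day 0 replicates 2 and 3, T65 day 4 replicate 1, T65 day 8 replicates 1 and 2, NB day 8 replicate 3 and NB day 12 replicate 3. Both T65 day 12 libraries and T65 day 0 replicate 1 were in the higher set, so T65 results are given with and without this split. OSH1 (LOC_Os03g51690), a homeobox gene that marks the shoot meristem, stood at 110 to 202 CPM over all libraries. None of the 22 genes had every library of the lower set below, or every one above, all libraries of the higher set. The rule fixed the first of these. NB day 12 replicate 3, in the lower set, had to lie above the NB day 0 libraries, all in the higher set. That result therefore does not show that the genes are free of the split.

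In T65 the median of the 22 group means was 0.314 CPM at day 0, 0.392 CPM at day 4, 0.591 CPM at day 8 and 0.746 CPM at day 12. In NB that median was 0.236 CPM at day 0, 0.537 CPM at day 4, 2.15 CPM at day 8 and 6.93 CPM at day 12. The NB ratio of day 12 to day 0 ranged from 4.08 to 193 with a median of 14. The genes thus started low: 15 of 22 had an NB day 0 mean under 1 CPM, and 14 still had a day 12 mean under 10 CPM. By day 8 the median gene had covered 57% of its log2 increase, and by day 4 it had covered 24.1%. The largest log2 step lay between days 8 and 12 in 11 genes, between days 4 and 8 in 8 genes and between days 0 and 4 in 3 genes (CAB2R, Lsi1 and LOC_Os04g48290). The NB figures are values the rule used, and no test was made on them.

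**Figure D1:**
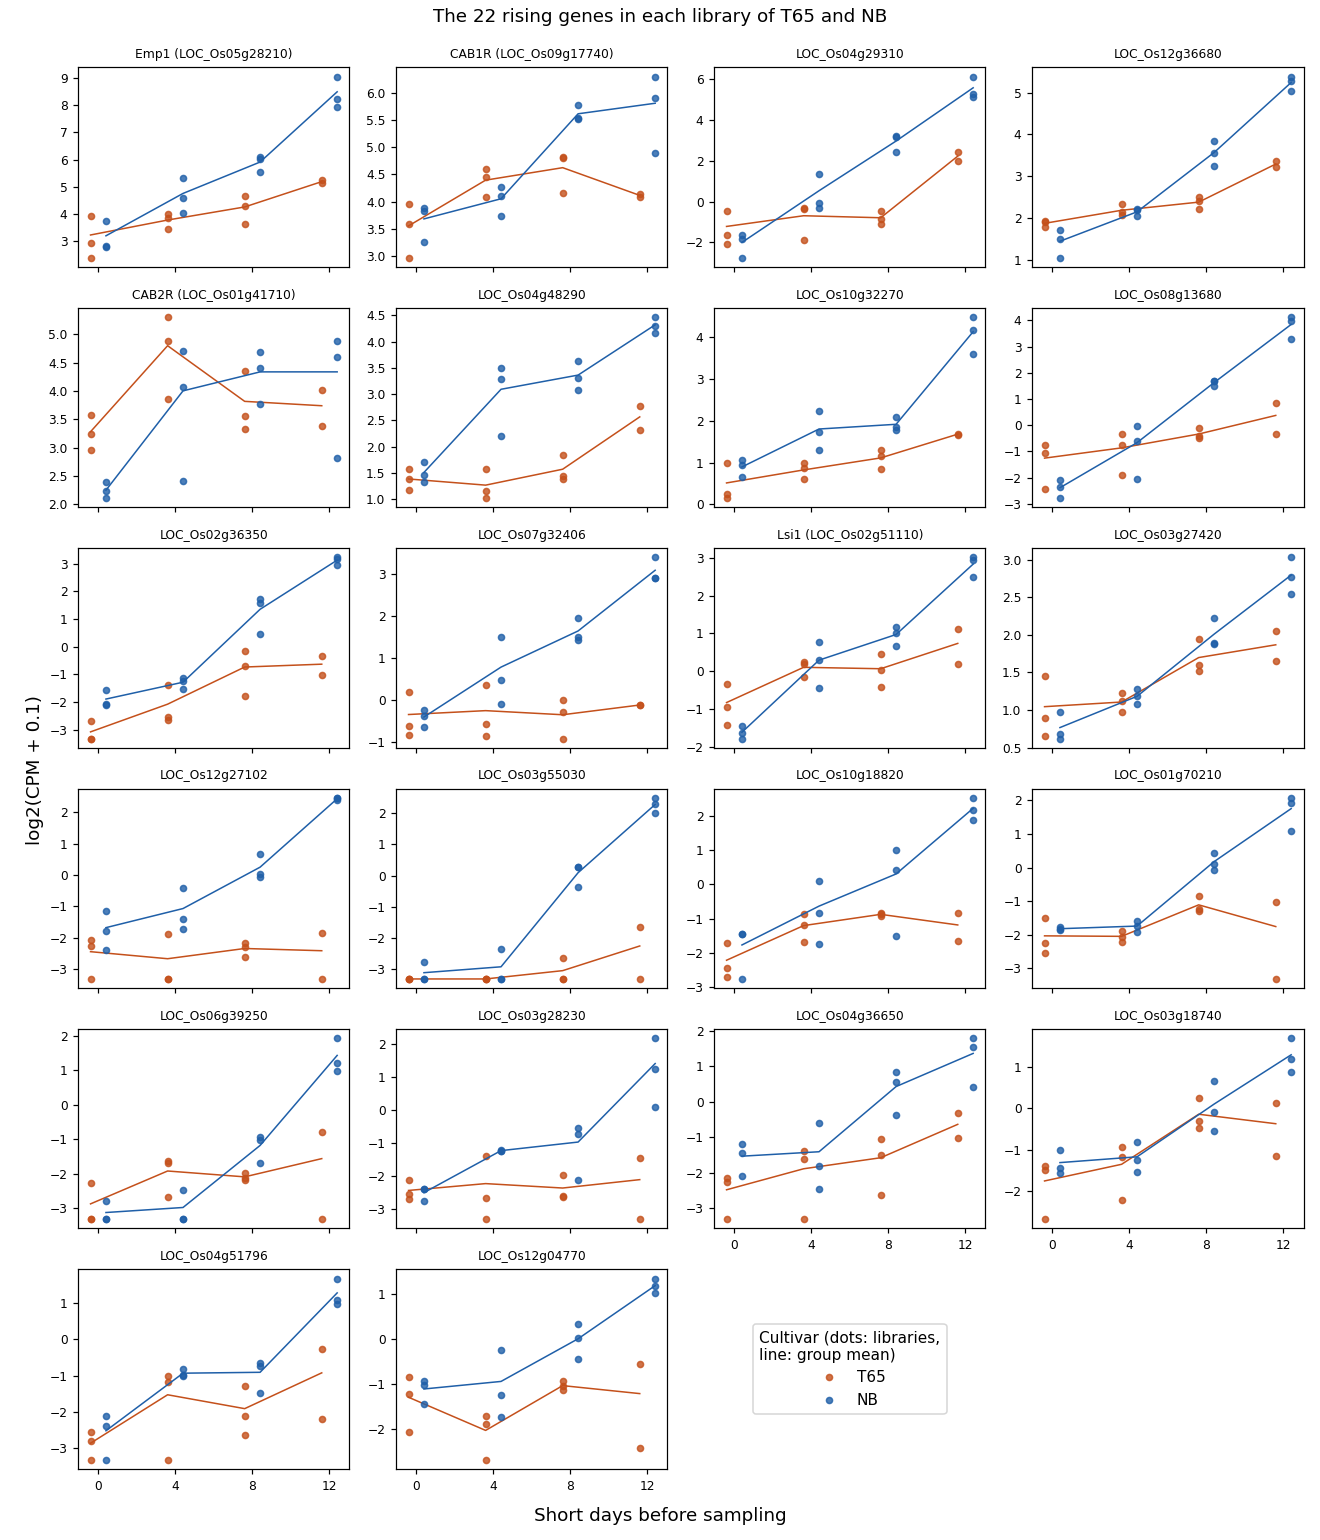
Level of each of the 22 genes, as log2(CPM + 0.1), against the number of short days, with T65 libraries in orange and NB libraries in blue, dots for single libraries and lines for group means; each panel has its own vertical scale. In every panel the T65 day 12 mean lies below the NB day 12 mean, and in 21 of 22 panels the dots of those groups do not overlap. The rule chose genes high at NB day 12, and no share over all genes is given beside that count.

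Loci near the thresholds show how sharp the selection was. For the day 8 ratio, LOC_Os10g32270 (2.03) and LOC_Os12g04770 (2.17) were just inside, and LOC_Os09g33530 (1.84) and NL1 (LOC_Os05g50270, 1.67), a GATA factor gene that limits bract growth, just outside. For the day 12 ratio, LOC_Os03g27420 (4.08) and CAB2R (4.25) were just inside, and LOC_Os09g28370 (3.99) and LOC_Os06g13720 (3.96) just outside. For the level, LOC_Os12g04770 (2.19 CPM) and LOC_Os04g51796 (2.33 CPM) were just inside, and LOC_Os08g24770 (1.95 CPM) and LOC_Os06g23350 (1.28 CPM) just outside. Of 18227 loci with a day 12 mean of at least 2 CPM, 58 met the day 12 ratio, 37 of those met the day 8 ratio, and 26 of those met the order of the 4 means. All 26 also had separate day 0 and day 12 libraries, and 22 remained after the 4 genes were left out. OsMADS34 (LOC_Os03g54170), a MADS-box gene of panicle identity, was missed because it had 1 count at NB day 4 and 6 counts at NB day 0, although it reached 1430 counts at NB day 12.

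Membership depended in part on single NB libraries. Leaving out each of the 12 NB libraries in turn kept 17 to 22 of the 22 genes, and 9 genes were kept in every case: Emp1, Lsi1, LOC_Os02g36350, LOC_Os04g29310, LOC_Os07g32406, LOC_Os08g13680, LOC_Os10g18820, LOC_Os12g27102 and LOC_Os12g36680. LOC_Os04g51796 was lost in 5 of the 12 removals and CAB2R in 4. Within NB day 12, replicate 1 was the highest library for 15 of the 22 genes and replicate 2 the lowest for 15.

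After 12 short days T65 apices held more transcript of a part of the 22 genes. At T65 day 12, 9 of 22 genes were higher than at T65 day 0 (edgeR quasi-likelihood test, Benjamini-Hochberg adjusted over all 22839 genes tested), which is 40.9%, and none was lower. Among all genes tested, 2.9% were called higher and 2.22% lower. At an unadjusted p under 0.05, 14 of the 22 were higher, against 11.2% of all genes tested, and none was lower. The median log2 fold change of the 22 was 1.44, against 0.004 over all genes tested. All 22 passed the filter on low counts, which they could do through their NB day 12 levels whatever T65 did. Every T65 day 12 library lay above every T65 day 0 library for 14 of the 22, or 63.6%, where 17.9% of all genes tested showed that separation. The remaining 8 genes had overlapping libraries.

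Emp1 had the highest CPM of the 22 genes in T65 day 12 apices, without adjustment for gene length. Its levels in T65 were 7.44, 15 and 5.09 CPM at day 0, 10.7, 15.6 and 14.2 CPM at day 4, 19.5, 12.26 and 25 CPM at day 8, and 37.7 and 34.8 CPM at day 12. The day 12 libraries lay above all T65 libraries of the earlier days, while days 0, 4 and 8 overlapped. The mean was 36.3 ± 2.01 CPM (SD, n = 2) at T65 day 12 and 9.19 ± 5.21 CPM (SD, n = 3) at T65 day 0, a log2 fold change of 2.03 ± 0.44 (SE, edgeR quasi-likelihood adjusted p = 0.01). In NB the levels were 6.8, 13.3 and 6.89 CPM at day 0, 40, 16.4 and 24 CPM at day 4, 46.7, 67.5 and 65.5 CPM at day 8, and 535, 247 and 304 CPM at day 12. Within NB day 12, replicate 1 lay far above the other two.

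Other late embryogenesis abundant genes were set beside Emp1. The summed level of 5 such loci without Emp1, among them LEA3 (LOC_Os05g46480) and RAB16B (LOC_Os11g26780), was 1.37 to 2.69 CPM at day 0, 1.95 to 6.44 CPM at day 4, 1.4 to 3.59 CPM at day 8 and 6.47 to 10.5 CPM at day 12 in T65. In NB that sum was 2.02 to 3.35 CPM at day 0, 4.13 to 15.3 CPM at day 4, 0.914 to 3.69 CPM at day 8 and 0.765 to 2.71 CPM at day 12. Part of the sum moves with the sets of libraries: LEA3 was at 0.131 to 0.451 CPM in the 7 libraries of the lower multiple-alignment share, which include 2 of the 3 T65 day 0 libraries, and at 1.39 to 5.33 CPM in the 16 others, which include both T65 day 12 libraries. The part of the split in these sums was not tested. RAB16B, a dehydrin gene induced by drying and abscisic acid, rose in T65 at day 12 (2.38 ± 0.0765 CPM, SD, n = 2, against 0.662 ± 0.11 CPM at T65 day 0, SD, n = 3; log2 fold change 1.86 ± 0.52, edgeR adjusted p = 0.0413). These loci were listed after the values of Emp1 had been seen.

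Lsi1 was a low-level gene in the apex. In T65 it stood at 0.42, 0.696 and 0.273 CPM at day 0, 0.803, 1.07 and 1.05 CPM at day 4, 0.644, 0.915 and 1.28 CPM at day 8, and 2.08 and 1.05 CPM at day 12. Both day 12 libraries and all 3 day 4 libraries lay above the day 0 libraries, but day 12 overlapped days 4 and 8. The change at T65 day 12 was 1.89 ± 0.44 on the log2 scale (57 against 25 counts, edgeR adjusted p = 0.016), and those at day 4 (1.14 ± 0.43, edgeR adjusted p = 0.448) and day 8 (1.12 ± 0.43, edgeR adjusted p = 0.286) did not pass. In NB Lsi1 was at 0.265, 0.225 and 0.191 CPM at day 0, 1.61, 0.641 and 1.12 CPM at day 4, 1.93, 1.49 and 2.16 CPM at day 8, and 7.95, 5.49 and 7.59 CPM at day 12. Its relative Lsi6 (LOC_Os06g12310), which unloads silicic acid from the xylem, did not pass in T65, with 47.5 ± 6.34 CPM (SD, n = 2) at day 12 and 48 ± 24.5 CPM (SD, n = 3) at day 0 (log2 fold change -0.01 ± 0.31, edgeR adjusted p = 0.996). Lsi6 in NB was at 34.6 ± 4.17 CPM at day 12 and 26.5 ± 4.63 CPM at day 0 (SD, n = 3 each). The efflux transporter gene Lsi2 (LOC_Os03g01700) had at most 3 counts in any group. Lsi2 and Lsi6 were added to the list after Lsi1 had been seen.

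The light-harvesting genes had their T65 maximum before day 12. CAB1R in T65 stood at 15.3, 7.73 and 11.9 CPM at day 0, 24.1, 21.7 and 16.9 CPM at day 4, 17.7, 28 and 27.9 CPM at day 8, and 17.5 and 17 CPM at day 12. Days 4, 8 and 12 all lay above day 0, with the highest mean at day 8 (log2 fold change 1.10 ± 0.29, edgeR adjusted p = 0.069) and a smaller difference at day 12 (0.565 ± 0.33, edgeR adjusted p = 0.336). CAB2R in T65 stood at 11.9, 7.66 and 9.3 CPM at day 0, 29.4, 39.5 and 14.4 CPM at day 4, 9.92, 11.7 and 20.3 CPM at day 8, and 10.4 and 16.1 CPM at day 12. Its T65 maximum was at day 4, and no T65 day passed the test for it (day 4, 1.56 ± 0.49, edgeR adjusted p = 0.347).

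In NB, CAB1R was at 14.7, 14.1 and 9.43 CPM at day 0, 17, 13.3 and 19.2 CPM at day 4, 46, 45.9 and 54.5 CPM at day 8, and 29.7, 59.4 and 78.5 CPM at day 12. CAB2R in NB was at 5.16, 4.58 and 4.21 CPM at day 0, 25.9, 5.21 and 16.6 CPM at day 4, 21.1, 13.5 and 25.7 CPM at day 8, and 6.98, 24.1 and 29.2 CPM at day 12. Days 8 and 12 overlapped for both genes, and the NB means of CAB2R on those days were almost equal. A wider list of 13 loci for chlorophyll-binding proteins and the small subunit of Rubisco, none of them members, had a summed level of 132 to 180 CPM at T65 day 12, 139 to 247 CPM at T65 day 8 and 103 to 163 CPM at T65 day 0, so those ranges overlapped. In NB the sum was 181 to 312 CPM at day 12, 256 to 289 CPM at day 8 and 142 to 155 CPM at day 0, and days 8 and 12 did not overlap day 0. Of the 12 loci with any count, 6 had a higher mean at T65 day 12 than at T65 day 0, and 11 had a higher mean at NB day 12 than at NB day 0. Of the 13 loci, 1 had 0 counts in every library. The part of green leaf tissue in the cut apices in these values was not tested. Chlorophyll-binding genes have near-identical copies, and reads aligned to several places are not in the counts, so levels of CAB1R and CAB2R are uncertain.

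Of the genes without a name, LOC_Os04g29310 had a ratio of day 12 to day 0, with 0.1 CPM added to each mean, of 10.95 in T65 and 193 in NB. In T65 it had 0.63, 0.139 and 0.219 CPM at day 0, 0.688, 0.169 and 0.697 CPM at day 4, 0.451, 0.366 and 0.615 CPM at day 8, and 3.86 and 5.34 CPM at day 12. T65 days 0, 4 and 8 overlapped and only day 12 stood above them. Its change at T65 day 12 was 3.604 ± 0.57 (log2, edgeR adjusted p = 0.00133), and most of it lay between days 8 and 12 (3.16 ± 0.55, edgeR adjusted p = 0.0144). In NB its levels were 0.221, 0.18 and 0.0478 CPM at day 0, 2.5, 0.842 and 0.7 CPM at day 4, 9.23, 8.85 and 5.23 CPM at day 8, and 70.6, 39 and 34.6 CPM at day 12, with no overlap between consecutive days.

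LOC_Os12g36680 had closely spaced libraries in each T65 group. It had 3.36, 3.69 and 3.61 CPM at T65 day 0, 4.93, 4.07 and 4.32 CPM at day 4, 5.6, 5.18 and 4.51 CPM at day 8, and 9.16 and 10.2 CPM at day 12. The T65 mean increased on each day, and day 12 lay above every earlier T65 library. At T65 day 12 it rose by 1.46 ± 0.19 on the log2 scale (edgeR adjusted p = 0.000291), and at T65 day 12 over T65 day 8 by 0.90 ± 0.19 (edgeR adjusted p = 0.0315). In NB it had 2.74, 3.14 and 1.96 CPM at day 0, 4.44, 4.01 and 4.52 CPM at day 4, 9.31, 14.3 and 11.6 CPM at day 8, and 41.8, 32.8 and 39 CPM at day 12. LOC_Os04g29310 and LOC_Os12g36680 were the 2 members called higher at T65 day 12 than at T65 day 8, where 0.451% of all genes were called higher. Without T65 day 12 replicate 2 or any 1 of the 3 T65 day 8 libraries, neither passed that comparison.

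LOC_Os10g32270 and LOC_Os04g48290 were the other genes above 1 CPM at T65 day 0 that rose at T65 day 12. LOC_Os10g32270 had 1.01, 1.88 and 1.09 CPM at T65 day 0, 1.72, 1.41 and 1.88 CPM at day 4, 2.12, 1.71 and 2.36 CPM at day 8, and 3.08 and 3.14 CPM at day 12 (log2 fold change at day 12 1.28 ± 0.34, edgeR adjusted p = 0.03). LOC_Os04g48290 had 2.14, 2.86 and 2.52 CPM at T65 day 0, 2.12, 1.92 and 2.86 CPM at day 4, 3.48, 2.5 and 2.61 CPM at day 8, and 4.9 and 6.74 CPM at day 12 (1.21 ± 0.30, edgeR adjusted p = 0.0207). For both, the T65 day 12 libraries lay above all other T65 libraries. LOC_Os04g48290 was at 11.1, 9.62 and 4.52 CPM in the NB day 4 libraries, all above its NB day 0 libraries (3.18, 2.65 and 2.39 CPM), whereas LOC_Os10g32270 had 4.6, 2.36 and 3.22 CPM at NB day 4, 3.36, 4.16 and 3.53 CPM at NB day 8 and then 22.4, 12 and 18.1 CPM at NB day 12.

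LOC_Os02g36350, LOC_Os04g51796 and LOC_Os08g13680 also rose at T65 day 12, on few counts. LOC_Os02g36350 had 0, 0 and 0.0547 CPM at T65 day 0, 0.0574, 0.282 and 0.0697 CPM at day 4, 0.193, 0.793 and 0.512 CPM at day 8, and 0.391 and 0.697 CPM at day 12. Its 15 counts at T65 day 12 against 1 at T65 day 0 gave a ratio of 26.7 (95% interval for counting error 4.12 to 1130, edgeR adjusted p = 0.0107), and it was the 1 member of 22 called at T65 day 8 (edgeR adjusted p = 0.0126), a call lost without T65 day 0 replicate 1 or 2 or T65 day 8 replicate 2 or 3. LOC_Os04g51796 had 18 counts at T65 day 12 against 2 at day 0, a ratio of 16 (interval 3.84 to 143, edgeR adjusted p = 0.0416), but its libraries at day 12 (0.738 and 0.116 CPM) were far apart. LOC_Os08g13680 had 1.69 and 0.697 CPM at T65 day 12 against 0.0841, 0.488 and 0.383 CPM at T65 day 0 (log2 fold change 2.17 ± 0.60, edgeR adjusted p = 0.0377). In NB the same gene reached 17.4, 9.71 and 15.7 CPM at day 12, against 0.132, 0.0449 and 0.0957 CPM at day 0.

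**Figure D2:**
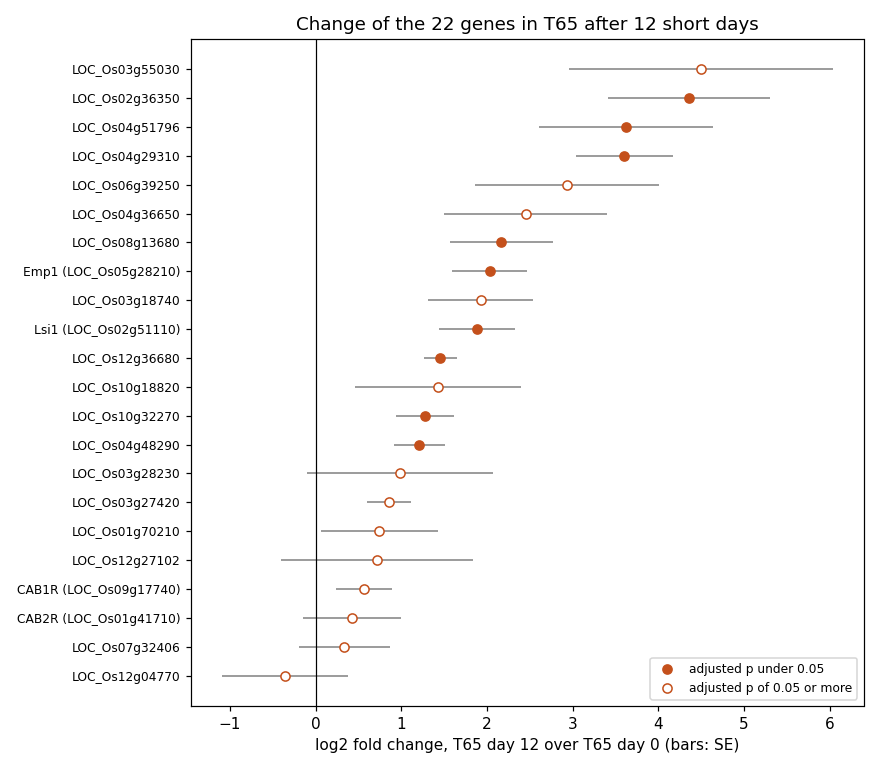
Log2 fold change of each of the 22 genes at T65 day 12 over T65 day 0, with bars for the standard error; filled dots passed the adjusted p threshold of 0.05 and open dots did not. The 9 filled dots all lie right of 0, and the widest bars belong to genes with few counts in T65.

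The other 13 genes did not pass at T65 day 12. LOC_Os03g18740 (1.93 ± 0.62, edgeR adjusted p = 0.0724) and LOC_Os03g27420 (0.85 ± 0.26, edgeR adjusted p = 0.0566) lay near the threshold. LOC_Os03g27420 had 3.04 and 4.06 CPM at T65 day 12 and 1.77, 2.65 and 1.48 CPM at T65 day 0, without overlap. LOC_Os07g32406, by contrast, was at 0.825 and 0.813 CPM at T65 day 12, inside the range of its T65 day 0 libraries (0.462, 1.04 and 0.547 CPM; 0.33 ± 0.53, edgeR adjusted p = 0.769), while in NB it had 10.5, 7.42 and 7.48 CPM at day 12 and 0.75, 0.539 and 0.67 CPM at day 0.

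Several members were close to undetected in T65. LOC_Os12g27102 had 0.174 and 0 CPM at T65 day 12 (4 counts in all) and 0, 0.139 and 0.109 CPM at T65 day 0 (4 counts), against 5.43, 5.13 and 5.35 CPM in the NB day 12 libraries. LOC_Os03g55030 had no count in any T65 library of days 0 and 4, 1 count at day 8 and 5 counts at day 12. All 5 were in replicate 1. Against a floor of 3 counts over the day 0 group, they gave a ratio of at least 2.97 (edgeR adjusted p = 0.101). That bound rests on 1 library and leaves out the counting error of the 5 counts. In NB the same gene had 3.94, 4.83 and 5.57 CPM at day 12 and 1 count at day 0. LOC_Os03g28230 had 6 counts at T65 day 12 and 5 at T65 day 0 (means of 0.130 and 0.0835 CPM). LOC_Os01g70210 had 9 and 9 (0.195 and 0.144 CPM), and LOC_Os12g04770 had 7 and 19 (0.334 and 0.310 CPM). These counts come from 2 libraries at day 12 and 3 at day 0. The day 12 counts of LOC_Os03g28230 and LOC_Os01g70210 were all in replicate 1. LOC_Os12g04770 was the single member with a negative fitted change at T65 day 12 (-0.36 ± 0.73, edgeR adjusted p = 0.827), although its mean CPM was slightly higher there. LOC_Os06g39250 (11 against 2 counts, a ratio of 9.81, interval 2.14 to 91.1, edgeR adjusted p = 0.116), LOC_Os04g36650 (15 against 5 counts, edgeR adjusted p = 0.139) and LOC_Os10g18820 (9 against 6 counts, edgeR adjusted p = 0.423) also had fewer than 20 counts in each of those T65 groups. All 11 day 12 counts of LOC_Os06g39250 were in replicate 1.

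In NB, where the rule required the climb, these low-count genes differed in timing. LOC_Os02g36350 had 0.132, 0.135 and 0.239 CPM at NB day 0, 0.242, 0.361 and 0.326 CPM at day 4, 1.26, 3.2 and 2.87 CPM at day 8, and 9.24, 8.87 and 7.7 CPM at day 12. Consecutive days did not overlap, but days 0 and 4 nearly met, at 0.239 CPM from 5 counts and 0.242 CPM from 3 counts. LOC_Os03g55030 had 1 count at NB day 0 and reached 0.671, 1.12 and 1.11 CPM at NB day 8. LOC_Os06g39250 also had 1 count at NB day 0, and stood at 0.42, 0.213 and 0.392 CPM at NB day 8 and 2.2, 1.87 and 3.71 CPM at NB day 12. These 2 genes were thus almost without counts before NB day 8. LOC_Os12g27102 had 0.923, 1.49 and 0.849 CPM at NB day 8, below all 3 of its NB day 12 libraries. LOC_Os03g28230 had 4.39, 0.965 and 2.24 CPM at NB day 12, all above the highest NB day 8 library (0.586 CPM) but widely spread. LOC_Os04g36650 had 1.23, 2.84 and 3.39 CPM at NB day 12 and 0.671, 1.71 and 1.37 CPM at NB day 8, so that those days overlapped. LOC_Os12g04770 and LOC_Os04g51796, nearest to the level the rule asked for, had 2.46, 1.93 and 2.18 CPM and 3.1, 1.87 and 2.02 CPM at NB day 12.

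Earlier days gave fewer calls in T65. At T65 day 8, 1 member was called higher and none lower (0.486% of all genes were called higher and 0.578% lower), with 11 members (and 5.34% of all genes) higher at an unadjusted p under 0.05 and a median log2 fold change of 1.11 against 0.008 over all genes. All T65 day 8 libraries lay above all T65 day 0 libraries for 9 members, or 40.9%, against 6.27% of all genes. At T65 day 4, 0 of 22 members passed in either direction by edgeR (0.114% of all genes were called higher and 0.035% lower), with 5 higher (and 5.01% of all genes) and 0 lower at an unadjusted p under 0.05, 0 calls by DESeq2 (0.271% of all genes higher) and a median of 0.54 against 0.003. The T65 day 4 libraries lay above the T65 day 0 libraries for 6 members, or 27.3%, against 8.45% of all genes. The 5 genes at T65 day 4 were CAB2R, CAB1R, Lsi1, LOC_Os02g36350 and LOC_Os04g51796. The T65 day 4, 8 and 12 comparisons share the same 3 day 0 libraries, so their values are not independent of each other.

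**Figure D3:**
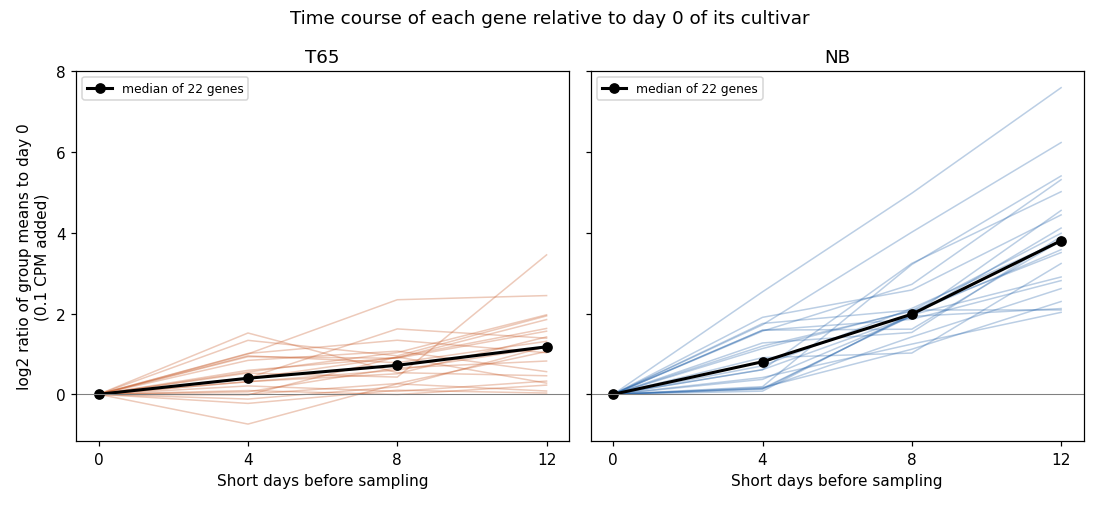
Log2 ratio of group means to day 0 of the same cultivar (0.1 CPM added), one thin line for each of the 22 genes and a black line for their median, with T65 on the left and NB on the right. At day 12 the T65 lines of 2 genes lie above 2 log2 units, and the NB lines, which the rule forced upwards, reach 2.03 to 7.59 log2 units.

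T65 was set beside NB without a test, because the NB side of any difference chose the genes. The T65 day 12 mean was below the NB day 12 mean for all 22 genes, at 1.64% to 65.9% of it with a median of 12.6%. It was also below the NB day 8 mean for all 22, and above the NB day 4 mean for 13. Every T65 day 12 library was below every NB day 12 library for 21 of the genes, the exception being CAB2R. The rule had chosen genes high at NB day 12. No share over all genes is given beside these counts, so they are a description only. At day 0 the T65 mean was above the NB mean for 10 of the 22, with a median T65 minus NB difference of -0.13 on the log2(CPM + 0.1) scale, against -0.06 over all genes tested. At day 12 that median difference was -2.72 for the members and 0.00 over all genes tested. As a share of the NB day 12 mean, the T65 day 12 mean was highest for CAB2R (65.9%), LOC_Os03g27420 (51.9%) and CAB1R (30.8%), and lowest for LOC_Os12g27102 (1.64%) and LOC_Os03g55030 (2.27%).

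Applied to T65, the rule that chose the genes in NB was met by 0 of the 22, and by 0.035% of all genes tested. Its parts were met more often: 7 members, or 31.8%, had T65 means in rising order over the 4 days, against 5.8% of all genes tested. The T65 day 12 ratio reached 4 for 2 members (LOC_Os02g36350 and LOC_Os04g29310, 0.363% of all genes), and the T65 day 8 ratio reached 2 for 5 (0.814% of all genes). LOC_Os02g36350 alone met the order and both ratios in T65 (0.0657% of all genes), and failed on the level of 2 CPM.

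The 4 genes left out of the set can be read beside it. OsMADS14 in T65 had 0.42, 0.209 and 0.164 CPM at day 0, 0.459, 0.282 and 0.628 CPM at day 4, 0.644, 0.976 and 0.768 CPM at day 8, and 7.64 and 3.6 CPM at day 12, with day 12 above all earlier T65 libraries. OsMADS18 in T65 had 110 and 108 CPM at day 12 against 29.8, 24.5 and 39.3 CPM at day 0, and the T65 day 12 changes of OsMADS14 (4.41 ± 0.46, edgeR adjusted p = 1.29e-05) and OsMADS18 (1.82 ± 0.19, edgeR adjusted p = 1.51e-05) passed. LOC_Os01g11940 passed as well (2.28 ± 0.54, edgeR adjusted p = 0.0166). OsMADS15 had 30 counts at T65 day 12, 29 of them in replicate 1, against 2 counts at T65 day 0, a ratio of 26.7 (interval 6.79 to 231, edgeR adjusted p = 0.057). OsMADS15 at T65 day 12 was at 0.368% of its NB day 12 mean, below the share of any of the 22 genes.

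The makeup of the set was in part fixed by the 4 genes that met the rule and were left out, 3 of them on the list of inflorescence MADS-box genes and LOC_Os01g11940 on that of the florigen family. Apart from these, none of 5 inflorescence and 21 other MADS-box genes, 19 SPL genes, 7 genes of the florigen family, 15 panicle branching and axillary meristem genes, 8 KNOX and BELL genes, 7 YABBY genes and 12 gibberellin genes was a member. The same held for 3 secondary wall genes. Members were rare among all loci as well (22 of 55986), so these counts of 0 are given as a description. The 22 genes lay on 11 of the 12 chromosomes by their identifiers, with 4 each on chromosomes 3 and 4, 3 on chromosome 12 and none on chromosome 11. No members were neighbours: at least 75 other loci of the files stood between any pair.

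The T65 day 12 comparison sets 2 libraries against 3. Without T65 day 12 replicate 2, the shallowest library, 3 of 22 members were called (0.32% of all genes), without T65 day 0 replicate 1 there were 3 (1.63% of all genes), and without T65 day 0 replicate 3 there were 4 (1.99% of all genes). Without T65 day 12 replicate 1 there were 6, or 27.3%, while the share of all genes was higher at 4.39%. In a fit that leaves T65 day 12 or day 0 with 1 library, that library is assumed to vary like the other groups. In the 16 libraries of the higher multiple-alignment share, where T65 day 0 is 1 library, 0 of 22 were called by edgeR. Only 10 genes in all (0.0438%) were called higher there, so that count of 0 says little about the members. At an unadjusted p under 0.05, 11 members and 5.79% of all genes were higher there, and the members' median log2 fold change was 1.70. With the split as a term in the model 7 members were called (2.01% of all genes), and LOC_Os10g32270 and LOC_Os04g51796 lost their call. LOC_Os08g13680 and LOC_Os04g51796 lost theirs with T65 libraries only in the model, and also with the replicate number as a term. LOC_Os04g29310 and LOC_Os12g36680 kept their T65 day 12 call in 17 of 18 alternatives, all except the 16 libraries, while LOC_Os04g51796 kept it in 8. The call of Emp1 was lost without T65 day 12 replicate 2, and that of LOC_Os02g36350 without that library or T65 day 0 replicate 1. Lsi1 was lost without T65 day 12 replicate 1 or T65 day 0 replicate 1 or 3, and LOC_Os04g48290 without T65 day 12 replicate 2 or T65 day 0 replicate 1 or 3. LOC_Os08g13680 and LOC_Os10g32270 were lost without either T65 day 12 library or without T65 day 0 replicate 1 or 3. LOC_Os04g51796 was lost without any 1 of the T65 day 12 or day 0 libraries and without T65 day 8 replicate 1. HSP101 (LOC_Os05g44340), a heat shock chaperone gene listed as a sign of handling, was at 129 and 143 CPM in the T65 day 12 libraries and at 29.1, 40 and 31.5 CPM at T65 day 0. It was at 11.4, 13.2 and 20.8 CPM at NB day 12 and 11.8, 12.9 and 8.71 CPM at NB day 0. At day 4 HSP101 was at 66.5, 79.5 and 55.6 CPM in T65 and 66.3, 30.3 and 31.8 CPM in NB. In both cultivars the day 4 libraries lay above those of day 0. JAZ8 (LOC_Os09g26780), the other gene of that list, did not rise at T65 day 12. It was at 21.2 and 12.19 CPM there and at 27.4, 24.9 and 16.7 CPM at T65 day 0, with overlap. The part of handling in the T65 day 12 result was not tested.

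**Figure D4:**
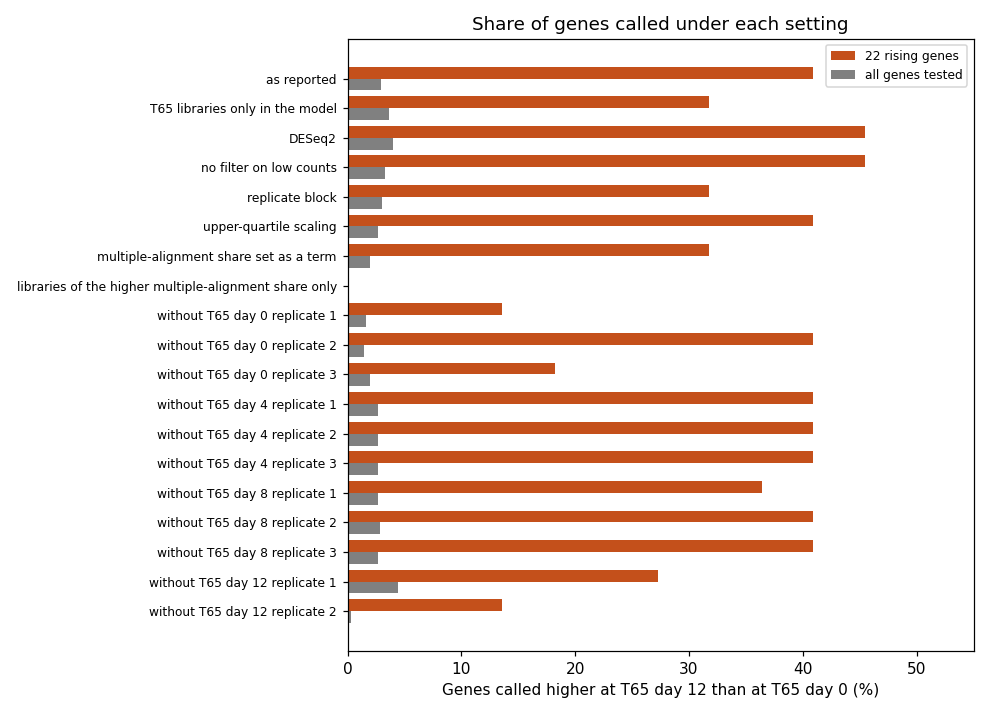
Percentage of genes called higher at T65 day 12 than at T65 day 0 under each setting, with orange bars for the 22 genes and grey bars for all genes tested. The orange share is 40.9% as reported, falls to 13.6% without T65 day 12 replicate 2 or T65 day 0 replicate 1, and is 0% in the 16 libraries of the higher multiple-alignment share, where the grey share is 0.0438%.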

How the data were processed

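The deposited files hold raw counts per gene, 1 column for each of 23 libraries, with no normalization. The submitters' processing notes name Bowtie2 and TopHat2, HTSeq, and edgeR 3.6.4 under R 3.1.0. Settings, genome build, annotation release and strand use were not stated in the labels, so a gene and its antisense partner may share reads. Excluded were 5 lines per file that name no gene, among them ambiguous reads (2.01 to 2.44% of counts in genes) and reads without a feature (4.72 to 5.51%). CPM in the text are per library total, as in the rule. Tests used edgeR 4.0.16 in R 4.3.3 (glmQLFit, glmQLFTest) with TMM scaling (factors 0.957 to 1.07) and filterByExpr, with 8 groups of cultivar and day in 1 model, 15 residual degrees of freedom and 22839 genes. The procedure was tested on simulated counts with the same spread for every gene (biological coefficient of variation 12.7%) and no split of libraries. That simulation does not cover genes that spread more between libraries. DESeq2 1.42.0 and other settings were alternatives. The SE is the log2 fold change divided by the square root of the F statistic. Groups came from the labels. Same-numbered libraries were not shown to be paired.

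The members and gene lists were chosen with earlier results of these data known. All 22 members are described, which covers the rule for named genes (list members, largest ratios, highest levels, largest T65 changes, threshold neighbours). Symbols were paired with MSU loci from known rice gene nomenclature and printed where symbol and chromosome matched a RefSeq table of assembly ASM3414082v1, which held for 86 of 123 listed loci. The symbols Emp1 and Lsi1, the longer leaf list and the late embryogenesis and silicon lists were added after the members were seen.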

Additional observations from a re-analysis of the deposited data

How the results depend on the processing

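For T65 day 12, 9 members were called higher. The count was 10 with DESeq2 (3.95% of all genes) or no filter on low counts (3.29%). It was 7 with T65 libraries only (3.6%), with the replicate block (3.06%) or with the multiple-alignment set as a term (2.01%, added after seeing the data). With upper-quartile scaling it was 9 (2.7%), and without single T65 libraries of days 0, 4 or 8 it was 3 to 9 (1.44 to 2.85%). Some fits left T65 day 0 or day 12 with 1 library. There the members' median log2 fold change was 1.7 in the 16 libraries of the higher multiple-alignment share. It was 1.14 without T65 day 12 replicate 1 and 1.46 without replicate 2. Over all genes those medians were 0, -0.02 and 0.007. For T65 day 8 (1 called, 0.486% of all genes) the count was 2 with T65 libraries only (0.788%) or DESeq2 (0.898%) and 5 with no filter (1.13%). It was 0 to 1 without single T65 libraries of days 0, 4 or 8 (0.166 to 0.46%). In the 16 libraries, where T65 day 0 is 1 library, the members' median log2 fold change at T65 day 8 was 1.11, against 0.002 over all genes. For T65 day 4 (0 called, 0.114% of all genes) the count was 3 with no filter (1.1%). At T65 day 12 over T65 day 8 (2 called, 0.451% of all genes) it was 3 with DESeq2 (1.6%). With no filter it was 4 higher (1.62%) and 1 lower (1.55%). It was 1 with the replicate block (0.377%) or the set as a term (0.0744%). Without single T65 libraries of days 0, 4 or 8 it was 0 to 2 (0.0394 to 0.403%). In the 16 libraries, where T65 day 8 is also 1 library, the members' median log2 fold change for that step was 0.27, against 0.003 over all genes. The causes of these shifts were not tested, and some of the fits had fewer libraries. Of 1188 single values of members under the alternatives, 43 lost and 13 gained a call and none that passed reversed; 33 values that passed in neither fit differed in sign. Same-numbered libraries had deviations correlated above 0.1 in 9 of 33 pairs, and in 28 of 66 combinations of a library with another group the best match had the same number, so the numbers were not taken to pair libraries.

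The rule gave 22 members, 24 with TMM-scaled CPM, 22 (19 of them shared) in the higher-share libraries, 9 with a pseudocount of 1 CPM and 13 with a floor of 5 CPM; without single NB libraries it gave 18 to 28. In T65 the whole rule was met by 0 members (0.035% of all genes tested), by 1 in the higher-share libraries, and by 0 to 1 without single libraries. No share over all genes is given for these alternatives, and in the higher-share libraries T65 day 0 is 1 library. These counts are therefore a description only. Members under 1 CPM rest on few counts per library.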

Other observations

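The level of LEA3 separated the libraries by multiple-alignment share, across days and cultivars. It stood at 0.131 to 0.451 CPM in the 7 libraries of the lower share and at 1.39 to 5.33 CPM in the 16 others, with no overlap. Among the 22839 genes tested, 184 had every library of the lower share below every library of the higher share, and none of the 22 members did. The rule kept members from doing so. It asked that NB day 12 replicate 3, of the lower share, lie above the NB day 0 libraries, of the higher share. Emp1, the late embryogenesis abundant gene among the members, overlapped between the sets. The labels do not say what separates the sets.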
